A study of Homo sapiens with 15 samples.

Results

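The 46 genes described here encode splicing factors: the SRSF and TRA2 proteins, the hnRNP proteins with PTBP1 and PTBP3, the SF3 and U2AF proteins that recognise the 3′ end of the intron, and the CLK and SRPK kinases. They were chosen by symbol, not by a measured value, and looked up by Ensembl identifier among 47459 gene rows with values. A row was found for 45 of the 46; SRSF8 was not analysed here. Of those 45 genes, 44 passed the filter on low values and were tested together with 16104 genes in all. U2AF1 was the gene left out by the filter.

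RNA came from MM.1S, an established human multiple myeloma line, after 6 h of treatment with each compound at 100 nM, in 3 libraries per group and 15 in all. The groups were dCBP-1, the combination of A-485 and GNE-781, GNE-781 alone, A-485 alone, and DMSO, the vehicle. CBP and p300 are paralogous coactivators that acetylate histones. A-485 blocks their catalytic site, GNE-781 blocks their bromodomain, and dCBP-1 links a GNE-781-like bromodomain binder to a binder of cereblon, a ubiquitin ligase receptor, so that both proteins are degraded. No group received a cereblon ligand alone, so that end of dCBP-1 has no control of its own here. For 2 combination libraries the treatment entry reads GNE-782 or GNE-783 although the title reads GNE-781, which was taken as a label error. The labels do not say whether replicates came from separate cultures, so a p-value here reflects spread among libraries that may be technical replicates.

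Splicing joins exons in the spliceosome, whose U2 particle carries the SF3a and SF3b complexes to the branch point after U2AF has bound the adjoining pyrimidine tract and AG. SR proteins bind exonic enhancers and mostly favour inclusion of an exon, while many hnRNP proteins bind silencers and oppose it. CLK kinases in the nucleus and SRPK kinases in the cytoplasm phosphorylate the serine and arginine repeats of SR proteins, which sets where these proteins are and when they act. Many of these genes limit their own output by splicing that sends the transcript to nonsense-mediated decay. In GENCODE 29, 32 of the 44 genes (72.7%) had an annotated transcript of that kind, against 43.3% of the 12726 protein-coding genes tested. The libraries were QuantSeq, which reads the 3′ end of mRNA, so the values below do not show which isoform was made and do not scale with transcript length.

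Depth was 13103114 to 18078838 reads with dCBP-1, 14657299 to 18291529 with the combination, 13163751 to 17208967 with GNE-781, 16370457 to 17581259 with A-485, and 14985578 to 17306042 in DMSO. The splicing factor genes held 0.903% to 1.09% of the reads of a library. DMSO replicates 1 and 2 stood apart: mitochondrial transcripts took 22.8% and 19.4% of their reads, against 14.1% to 16.7% in the treated libraries and 16.1% in DMSO replicate 3, and fewer genes had a read (16557 and 17585, against at least 19128 elsewhere). For 35 of the 44 genes, DMSO replicate 3 was the highest of its group. The share over all genes was not counted, so this cannot be read as particular to the 44. The median log2 fold change of all genes with dCBP-1 was 0.07 against the DMSO group and −0.12 against DMSO replicate 3 alone. Calls that changed when DMSO replicates 1 and 2 were both left out are given beside each gene. Such a fit rests on DMSO replicate 3 alone as its control. The part of DMSO replicates 1 and 2 in the results was not tested further. Plasma cell markers including SDC1, IRF4 and XBP1 were present in every library, summing to 26089 to 27719 normalized counts with dCBP-1 and 68121 to 71521 in DMSO, and 9 of the 10 fell with dCBP-1. Markers of other cell types were low. T cell markers summed to 11.3 to 14.9 normalized counts with dCBP-1 and 9.61 to 25.3 in DMSO, monocyte markers to 9.31 to 19.4 and 0 to 34.0, and fibroblast markers to 4.66 to 7.11 and 6.73 to 19.4. CD3D, CSF1R and FCGR1A were at 0 throughout, whereas CD3E, CD3G, CD14 and ITGAM reached 11.6, 14.3, 16.6 and 26.7 in single libraries. CD14 was called higher with dCBP-1, at 8.74 ± 3.70 against 1.62 ± 2.80 in DMSO (SD, n = 3; log2 2.35, limma adjusted p = 0.016), and the part of these markers in the results was not tested. In bulk RNA, fewer cells and less RNA per cell cannot be told apart.

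With dCBP-1, 17 of the 44 genes fell and 3 rose (38.6% and 6.82%), against 18.5% and 19.3% of all genes tested. The median log2 fold change was −0.26 for the 44 genes and 0.07 for all genes. Among the 6855 genes whose mean lay in the range spanned by the 44, 26.5% fell and 22.6% rose. The libraries did not overlap for 21 genes below DMSO and 3 above it, where 22.5% and 21.8% of all genes did so. The falls included 9 of the 16 hnRNP genes, 5 of the 9 SF3 and U2AF genes and 3 of the 12 SR and TRA2 genes, and the 3 rises were SF3A1, SRSF11 and CLK2. Calls are at a Benjamini-Hochberg adjusted p below 0.05 from limma over all genes, and values are normalized read counts. All but 1 of the called changes were under 2-fold. Without DMSO replicates 1 and 2, 21 genes were called with dCBP-1, 17 of them among the 20. In that fit 16.06% of all genes fell and 7.914% rose, and the median of all genes was −0.12.

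**Figure D1:**
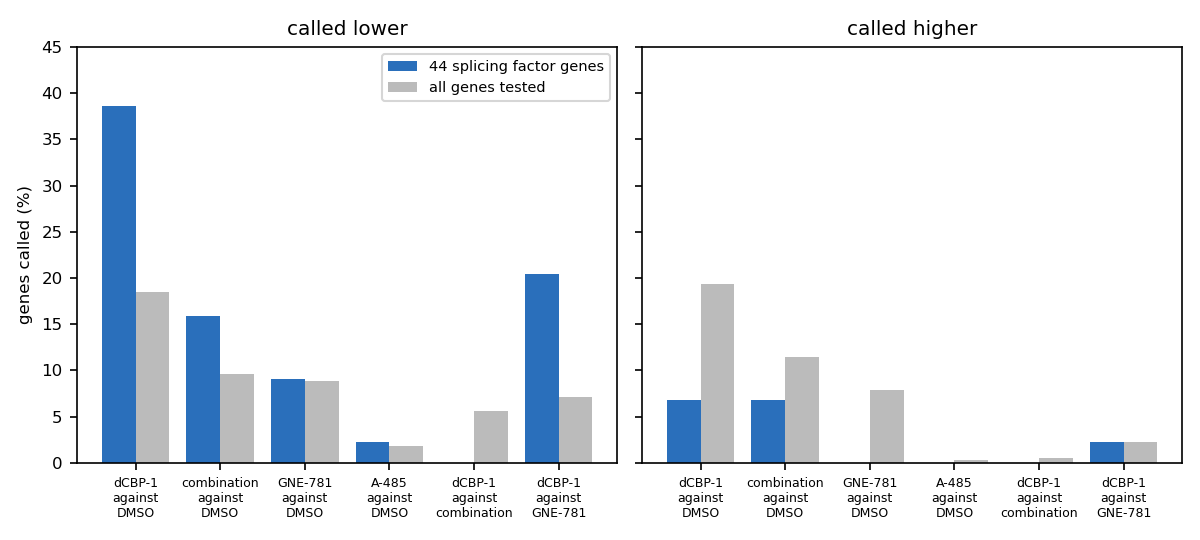
Share of the 44 splicing factor genes (blue) and of all 16104 genes tested (grey) called lower or higher, in percent, in each of the 6 comparisons. With dCBP-1 against DMSO 38.6% of the splicing factor genes and 18.5% of all genes were called lower.

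SF3A2, a subunit of the SF3a complex that ties the U2 particle to the branch point, had the largest change of the 44. It stood at 296, 266 and 250 normalized counts with dCBP-1, 451, 357 and 432 with the combination, 250, 301 and 322 with GNE-781, 310, 368 and 471 with A-485, and 1240, 1153 and 674 in DMSO. All 12 treated libraries lay below all DMSO libraries, and DMSO replicate 3 was well below the other two. The log2 fold change against DMSO was −1.87 ± 0.19 with dCBP-1 (SE; limma adjusted p = 4.5e-09), −1.26 with the combination (adjusted p = 2.5e-05), −1.77 with GNE-781 (adjusted p = 3.7e-07) and −1.39 with A-485 (adjusted p = 0.00018). SF3A2 was the 1 gene of the 44 called in all 4 treatments. Without DMSO replicates 1 and 2 it stayed called with dCBP-1 at −1.32 (adjusted p = 0.00013), but its call ended with the combination at −0.71 (adjusted p = 0.064) and with A-485 at −0.83 (adjusted p = 0.18). The exons of SF3A2 overlap those of PLEKHJ1 on the opposite strand, and PLEKHJ1 fell as well, to 1096 ± 105 with dCBP-1 against 1938 ± 149 in DMSO (SD, n = 3; log2 −0.82, limma adjusted p = 7.6e-06). The strand used in counting is not given, so reads of these genes cannot be told apart.

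SF3A1, the SF3a subunit that also contacts the U1 particle, went the other way. It stood at 2011, 1827 and 2112 normalized counts with dCBP-1, 1468, 1695 and 1693 with the combination, 1553, 1517 and 1738 with GNE-781, 1638, 1342 and 1156 with A-485, and 1078, 1049 and 1535 in DMSO. Every dCBP-1 library was above every DMSO library, whereas each other treatment overlapped DMSO. The rise was 0.72 ± 0.15 on the log2 scale with dCBP-1 (SE; limma adjusted p = 0.00025) and 0.43 with the combination (adjusted p = 0.037). Both calls ended without DMSO replicates 1 and 2, at 0.37 (adjusted p = 0.15) and 0.07 (adjusted p = 0.86), and that with the combination also ended when any 1 of combination replicates 2 and 3 and DMSO replicates 1 and 2 was left out (adjusted p = 0.098 to 0.19). SF3A3, the third SF3a subunit, was not called with dCBP-1 (log2 −0.10).

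The 250 bases before the transcript starts of both SF3a genes are shown because the subunits share a complex and moved in opposite directions. Sequences are from RefSeq on GRCh38.p14, on the strand of the gene, 5′ to 3′. SF3A2 lies at chr19:2236574-2236823 on the plus strand, and SF3A1 at chr22:30356895-30357144 on the minus strand. Capitals mark matches, on either strand, to any of 6 short motifs, here GGGCGGG (the GC box) and CCGGAAG (the letters bound by ETS factors).

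SF3A2: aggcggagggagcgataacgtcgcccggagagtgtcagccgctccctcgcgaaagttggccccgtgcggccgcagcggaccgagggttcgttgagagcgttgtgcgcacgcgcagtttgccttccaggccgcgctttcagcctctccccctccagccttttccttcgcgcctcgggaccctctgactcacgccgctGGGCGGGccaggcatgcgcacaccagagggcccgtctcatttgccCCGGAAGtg
SF3A1: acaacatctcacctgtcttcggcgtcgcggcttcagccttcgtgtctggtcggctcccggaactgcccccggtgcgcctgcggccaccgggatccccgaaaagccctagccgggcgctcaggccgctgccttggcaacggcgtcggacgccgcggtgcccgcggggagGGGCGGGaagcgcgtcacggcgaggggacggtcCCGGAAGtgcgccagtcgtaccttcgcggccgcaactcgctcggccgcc

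Both windows held 1 GC box and 1 set of ETS letters. Of the 44 genes tested, 40 had an entry in the promoter table, and the first entry of each was used. The shares for tested genes instead count all 16218 promoter entries, of which a gene can have several. The GC box was found in 24 of these 40 (60%) and in 46.6% of the promoters of tested genes, the ETS letters in 11 (27.5%) and 13.4%, and CCAAT in 14 (35%) and 33.2%. CACGTG, the E-box that MYC and its partners bind, was in 8 (20%) and 8.15%, and TATAAA in 4 (10%) and 6.39%. TGACGTCA, the cAMP response element, had no match in the 40 windows and was in 2.405% of the promoters of tested genes. A match is a description of the letters only.

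In the SF3b complex and U2AF, levels fell or were not called with dCBP-1. U2AF2, which binds the pyrimidine tract, averaged 2161 ± 194 normalized counts with dCBP-1 and 3426 ± 508 in DMSO (SD, n = 3; log2 −0.66, limma adjusted p = 0.00032), and also fell with GNE-781 (−0.60, adjusted p = 0.0029). SF3B3, a scaffold subunit of SF3b, averaged 981 ± 96.5 with dCBP-1 and 1455 ± 128 in DMSO (−0.57, adjusted p = 0.00066), and fell with GNE-781 as well (−0.40, adjusted p = 0.03). The SF3B3 call with GNE-781 ended when any 1 of the GNE-781 libraries or of DMSO replicates 1 and 3 was left out (adjusted p = 0.059 to 0.09). SF3B4 fell with dCBP-1 (−0.45, adjusted p = 0.023) and with the combination (−0.60, adjusted p = 0.0068). Its call with dCBP-1 ended without dCBP-1 replicate 3, at −0.25 (adjusted p = 0.23), and without DMSO replicate 1, at −0.39 (adjusted p = 0.088). The SF3B4 calls also ended when DMSO replicates 1 and 2 were both left out, with dCBP-1 (−0.46, adjusted p = 0.14) and with the combination (−0.61, adjusted p = 0.10), and the SF3B3 call ended with GNE-781 (−0.50, adjusted p = 0.089). SF3B2 was called with dCBP-1 at −0.35 (adjusted p = 0.047), and that call ended without DMSO replicate 3, at −0.20 (adjusted p = 0.22), or when any 1 of the dCBP-1 libraries was left out (adjusted p = 0.058 to 0.16). SF3B1, the branch-point subunit that is often mutated in blood cancers, was not called: its log2 fold change with dCBP-1 was −0.01, with a 95% interval of −0.28 to 0.25.

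SF3B5, a small SF3b subunit, was called higher with the combination (log2 0.58, limma adjusted p = 0.017). Its normalized counts were 4006, 3976 and 4771 with the combination and 1972, 2567 and 4449 in DMSO. DMSO replicate 3 lay inside the combination's range, and without replicates 1 and 2 the SF3B5 value turned to −0.07 (adjusted p = 0.85). The SF3B5 call also ended when any 1 of combination replicate 3 and DMSO replicates 1 and 2 was left out (adjusted p = 0.07 to 0.19). U2AF1, which reads the AG of the 3′ splice site, was listed at 0, 0.808 and 1.19 normalized counts with dCBP-1 and 7.69, 2.11 and 1.21 in DMSO. GENCODE 29 also annotates a near-identical copy, U2AF1L5, which was not analysed here. The processing notes give hg19 and no annotation, so whether that copy took part in the counting is not known. The U2AF1 values cannot be read as absence of the transcript.

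Among the hnRNP genes, 9 of 16 were lower with dCBP-1, none was higher, and their median log2 fold change was −0.41. Their summed level was 58038 to 65154 normalized counts with dCBP-1, 67279 to 82442 with the combination, 77232 to 81390 with GNE-781, 73806 to 88430 with A-485, and 73646 to 99961 in DMSO. The dCBP-1 libraries thus lay below those of every other group, while the 3 inhibitor groups overlapped DMSO. HNRNPF, which binds runs of G, stood at 5701, 5881 and 3960 with dCBP-1, 5102, 6071 and 7858 with the combination, 6795, 7252 and 8109 with GNE-781, 8691, 6894 and 7372 with A-485, and 8664, 9431 and 10365 in DMSO. Libraries of dCBP-1, the combination and GNE-781 were all below DMSO for HNRNPF, and dCBP-1 replicate 3 was the lowest of all. Its log2 fold change was −0.89 ± 0.16 with dCBP-1 (SE; limma adjusted p = 4.5e-05) and −0.60 with the combination (adjusted p = 0.0071), and the HNRNPF call with the combination ended without combination replicate 1 (−0.45, adjusted p = 0.059).

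**Figure D2:**
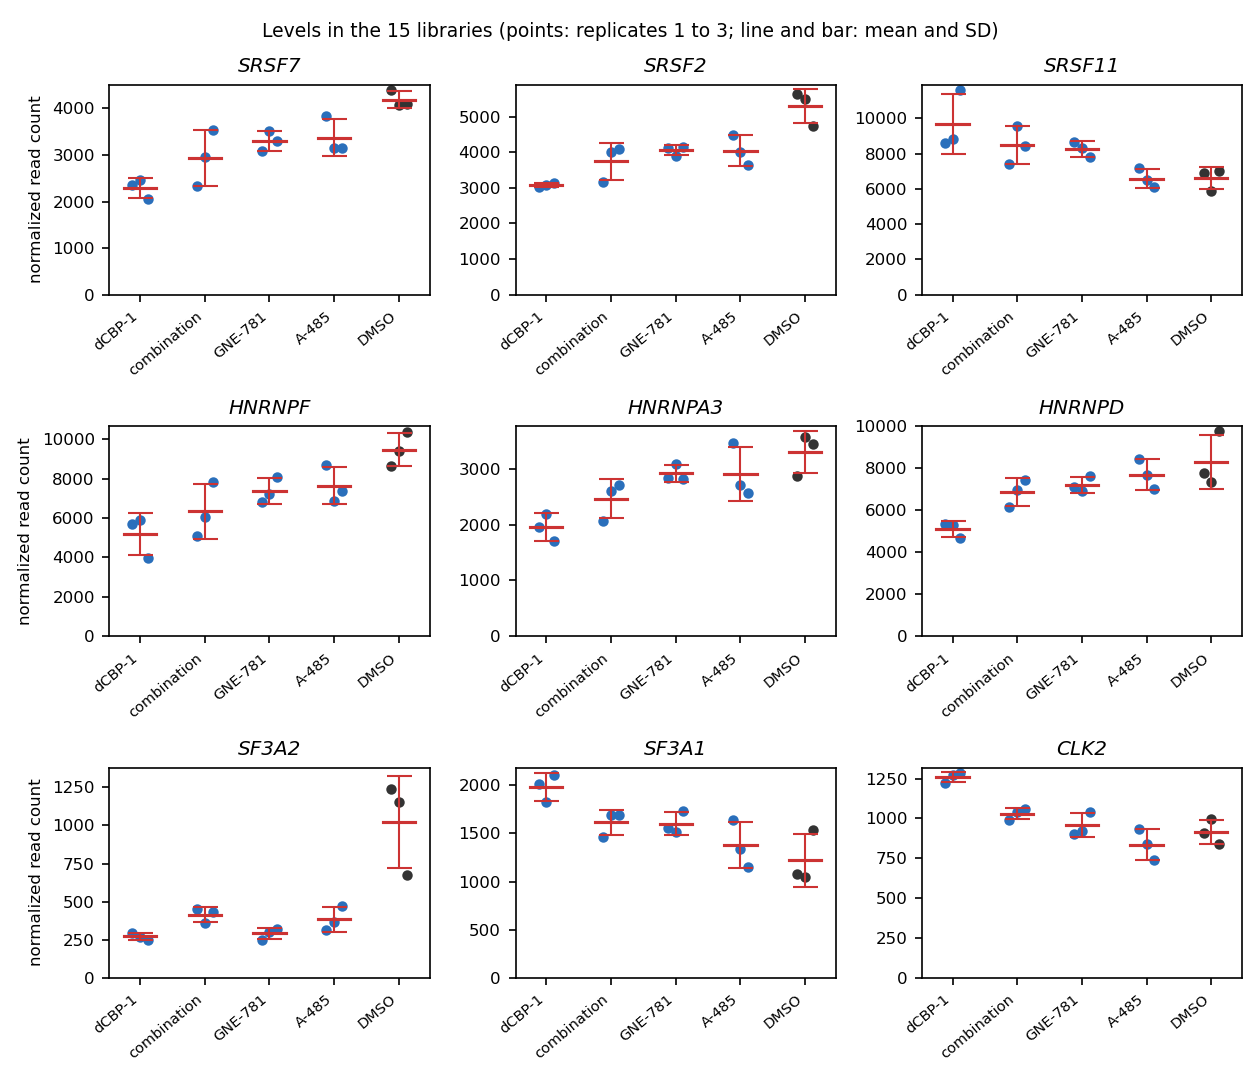
Normalized read counts of 9 splicing factor genes in each library (points) with the group mean (line), for dCBP-1, the combination, GNE-781, A-485 and DMSO. SF3A2 is between 250 and 471 in the treated libraries and between 674 and 1240 in DMSO, while SF3A1, SRSF11 and CLK2 are highest on average with dCBP-1.

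HNRNPA1, HNRNPA2B1 and HNRNPA3 form a family of silencer-binding proteins, and all fell with dCBP-1. HNRNPA1 stood at 4171, 3787 and 3212 normalized counts with dCBP-1, 4474, 4894 and 5515 with the combination, 4979, 5330 and 5273 with GNE-781, 5932, 5263 and 5451 with A-485, and 5196, 6488 and 7404 in DMSO. Every dCBP-1 library was below every other library for HNRNPA1, and the 3 inhibitor groups overlapped DMSO. The log2 fold changes with dCBP-1 were −0.77 for HNRNPA1 (limma adjusted p = 4.9e-05), −0.58 for HNRNPA2B1 (adjusted p = 0.0016) and −0.76 for HNRNPA3 (adjusted p = 8.3e-05). HNRNPA3 also fell with the combination (−0.42, adjusted p = 0.031), a call that ended without combination replicate 1 (−0.30, adjusted p = 0.16), combination replicate 2 or DMSO replicate 2 or 3 (adjusted p = 0.053 to 0.14). With DMSO replicates 1 and 2 both left out, the combination's call on HNRNPA3 ended (−0.49, adjusted p = 0.13) and HNRNPA1 was called lower with it (−0.58, adjusted p = 0.038). Processed copies in the genome make HNRNPA1 and HNRNPA3 uncertain: 71 annotated HNRNPA1 pseudogenes had rows, and their summed value reached at most 7.18% of the lowest HNRNPA1 value, against 6.68% for the 13 of HNRNPA3. The exons of HNRNPA2B1 overlap CBX3 on the opposite strand, and CBX3 was not called with dCBP-1 against DMSO (log2 −0.09). Nor was CBX3 called against GNE-781 (−0.35, limma adjusted p = 0.16), though its dCBP-1 libraries all lay below those of GNE-781. HNRNPU overlaps COX20 and SRPK2 overlaps KMT2E in the same way. With dCBP-1 these were not called against DMSO (0.10 and 0.00) or GNE-781 (−0.34 and −0.28). The part of shared reads was not tested.

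HNRNPD, also called AUF1, binds AU-rich elements in 3′ regions and speeds the decay of such mRNAs. It stood at 5363, 5272 and 4672 normalized counts with dCBP-1, 6152, 6981 and 7463 with the combination, 7102, 6895 and 7612 with GNE-781, 8448, 7658 and 6991 with A-485, and 7781, 7342 and 9759 in DMSO. Every dCBP-1 library was below every other library. The log2 fold change with dCBP-1 was −0.69 ± 0.13 (SE; limma adjusted p = 0.00012). HNRNPH2 and HNRNPH3, relatives of HNRNPF, fell by 0.47 and 0.64 on the log2 scale with dCBP-1 (adjusted p = 0.009 and 0.0017), and HNRNPK, which binds runs of C, and HNRNPU, a nuclear scaffold protein, fell by 0.42 and 0.41 (adjusted p = 0.013 and 0.015). Of these, HNRNPH2 and HNRNPK were no longer called without dCBP-1 replicate 3 (adjusted p = 0.062 and 0.051), HNRNPK and HNRNPU without DMSO replicate 3 (adjusted p = 0.057 and 0.054), and HNRNPU without dCBP-1 replicate 2 (adjusted p = 0.056).

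The other hnRNP genes were not called with dCBP-1. HNRNPA0, HNRNPH1 and HNRNPR had log2 fold changes of 0.00, 0.03 and 0.00, and HNRNPC, HNRNPL and HNRNPM had −0.24, −0.33 and −0.30. HNRNPC, HNRNPL and HNRNPM were called lower once DMSO replicates 1 and 2 were left out (−0.60, −0.55 and −0.86), with DMSO replicate 3 as the only control library. The hnRNP median was then −0.66, and that of all genes −0.12. HNRNPM was then also called with the combination and with GNE-781 (−0.67 and −0.55). It stood at 4508, 4767 and 8284 normalized counts in DMSO and at 4906, 4695 and 4117 with dCBP-1. HNRNPLL, a regulator of splicing in lymphocytes and plasma cells, had 272 ± 28.5 normalized counts with dCBP-1 and 233 ± 29.5 in DMSO (SD, n = 3) and was not called. PTBP1, a repressor that binds pyrimidine tracts, was not called with dCBP-1 either (log2 −0.03, 95% interval −0.29 to 0.23). Its relative PTBP3 was called higher with the combination (0.41, limma adjusted p = 0.044), though its combination and DMSO libraries overlapped and the call ended without DMSO replicates 1 and 2 (0.10, adjusted p = 0.81). The PTBP3 call also ended when any 1 of these and of combination replicates 2 and 3 was left out (adjusted p = 0.097 to 0.26).

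Among the SR proteins, SRSF7 and SRSF2 fell and SRSF11 rose with dCBP-1. SRSF7, which also couples splicing to mRNA export, stood at 2353, 2456 and 2057 normalized counts with dCBP-1, 2329, 2949 and 3534 with the combination, 3089, 3525 and 3300 with GNE-781, 3827, 3152 and 3139 with A-485, and 4397, 4079 and 4097 in DMSO. All 12 treated libraries were below DMSO, and those of dCBP-1 were also below those of GNE-781 and A-485. The log2 fold change was −0.88 ± 0.14 with dCBP-1 (SE; limma adjusted p = 8.2e-06) and −0.53 with the combination (adjusted p = 0.0061). SRSF2, a classic exon-inclusion factor and another gene mutated in blood cancers, averaged 3089 ± 54.7 with dCBP-1 and 5286 ± 476 in DMSO (SD, n = 3; −0.77, adjusted p = 1.7e-05). It also fell with the combination (−0.50, adjusted p = 0.0055) and GNE-781 (−0.38, adjusted p = 0.04). Without DMSO replicates 1 and 2 the SRSF2 calls with the combination (−0.35, adjusted p = 0.24) and GNE-781 (−0.23, adjusted p = 0.51) ended, as did that of SRSF7 with the combination (−0.50, adjusted p = 0.12). The SRSF2 call with GNE-781 also ended when any 1 of the GNE-781 libraries or of DMSO replicates 1 and 2 was left out (adjusted p = 0.077 to 0.14), and the SRSF7 call with the combination without combination replicate 1 (adjusted p = 0.06).

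SRSF11, an SR-like protein, stood at 8603, 8809 and 11633 normalized counts with dCBP-1, 7408, 9571 and 8456 with the combination, 8647, 8333 and 7783 with GNE-781, 7161, 6479 and 6097 with A-485, and 6906, 5887 and 7004 in DMSO. The dCBP-1, combination and GNE-781 libraries were all above DMSO, and dCBP-1 replicate 3 was the highest. The rise with dCBP-1 was 0.54 ± 0.14 on the log2 scale (SE; limma adjusted p = 0.0025), and its call ended without DMSO replicates 1 and 2 (0.45, adjusted p = 0.077). SRSF3 fell with dCBP-1 by 0.41 on the log2 scale (adjusted p = 0.017), a call lost when either dCBP-1 replicate 3 or DMSO replicate 3 was left out (adjusted p = 0.067 and 0.058). SRSF1, SRSF4, SRSF5, SRSF6, SRSF9 and SRSF10 and the SR-like TRA2A and TRA2B were not called in any treatment, with log2 fold changes with dCBP-1 between −0.35 for SRSF9 and 0.33 for TRA2A.

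Of the kinases, CLK2 was the 1 called with dCBP-1. It stood at 1224, 1273 and 1284 normalized counts with dCBP-1, 990, 1042 and 1057 with the combination, 904, 922 and 1042 with GNE-781, 933, 838 and 737 with A-485, and 908, 996 and 842 in DMSO. Every dCBP-1 library was above every other library. The rise was 0.46 ± 0.13 on the log2 scale (SE; limma adjusted p = 0.0048). CLK1 was called lower with the combination (−0.37, adjusted p = 0.039) and not with dCBP-1 (−0.25, adjusted p = 0.12). Its combination call was lost when any 1 of DMSO replicates 2 and 3 and combination replicates 1 and 2 was left out (adjusted p = 0.064 to 0.13). Leaving out both DMSO replicates 1 and 2 ended the CLK1 call as well (−0.53, adjusted p = 0.059). CLK4, SRPK1 and SRPK2 had log2 fold changes of −0.03, −0.26 and 0.04 with dCBP-1 and were not called. SRPK2 was called lower with dCBP-1 once DMSO replicates 1 and 2 were left out (−0.56, adjusted p = 0.032).

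The promoters of HNRNPA3, which fell, and CLK2, which rose, both held the E-box and are shown in the same way, with CCAAT also in capitals. HNRNPA3 lies at chr2:177212544-177212793 on the plus strand and CLK2 at chr1:155273505-155273754 on the minus strand.

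HNRNPA3: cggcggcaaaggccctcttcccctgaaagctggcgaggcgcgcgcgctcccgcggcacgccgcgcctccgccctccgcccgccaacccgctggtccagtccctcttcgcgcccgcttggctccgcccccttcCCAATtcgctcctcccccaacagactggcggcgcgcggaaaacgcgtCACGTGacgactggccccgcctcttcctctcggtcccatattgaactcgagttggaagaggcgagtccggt
CLK2: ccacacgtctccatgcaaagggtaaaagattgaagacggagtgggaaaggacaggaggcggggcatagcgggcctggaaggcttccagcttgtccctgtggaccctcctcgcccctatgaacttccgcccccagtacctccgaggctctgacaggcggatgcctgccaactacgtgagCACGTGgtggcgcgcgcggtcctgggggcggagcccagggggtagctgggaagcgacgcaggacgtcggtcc

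The E-box was in 4 of the 14 windows of genes that fell with dCBP-1, 1 of the 3 of genes that rose and 3 of the 23 of genes not called. CCAAT was in 7 of the 14, none of the 3 and 7 of the 23.

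The inhibitors changed fewer of the 44 genes than dCBP-1 did, and also fewer of all genes tested. With the combination 3 rose and 7 fell (6.82% and 15.9%), against 11.4% and 9.6% of all genes. With GNE-781 none rose and 4 fell (9.09%), against 7.82% and 8.81%. With A-485 none rose and 1 fell (2.27%), against 0.348% and 1.79%. The shares that fell with GNE-781 and with A-485 were near those of all genes. The combination's rises were SF3B5, SF3A1 and PTBP3, and its falls were SF3A2, SRSF2, SRSF7, HNRNPA3, HNRNPF, SF3B4 and CLK1. SF3A2, U2AF2, SF3B3 and SRSF2 were those called with GNE-781, and SF3A2 was called with A-485. With GNE-781, 14 of the 44 genes had an unadjusted limma p below 0.05, 6 higher and 8 lower. That threshold was passed by 30.27% of all genes in either direction. The tools edgeR and DESeq2 each called 4 of the 44 higher, against 10.56% and 10.67% of all genes. With libraries rescaled by TMM, 4 of the 44 genes rose and 7 fell with GNE-781, against 11.56% and 10.79% of all genes. Across the 4 treatments, 23 genes were called in at least 1 and 21 in none, and no gene was called in opposite directions. The treatments share their DMSO libraries, so these counts are not independent. Without DMSO replicates 1 and 2, the combination kept its call on HNRNPF, GNE-781 kept those on SF3A2 and U2AF2, and A-485 kept none. Fewer of all genes were called in that fit too, with each of these treatments. The median log2 fold change of all genes was then −0.09 with the combination, −0.11 with GNE-781 and −0.19 with A-485.

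**Figure D3:**
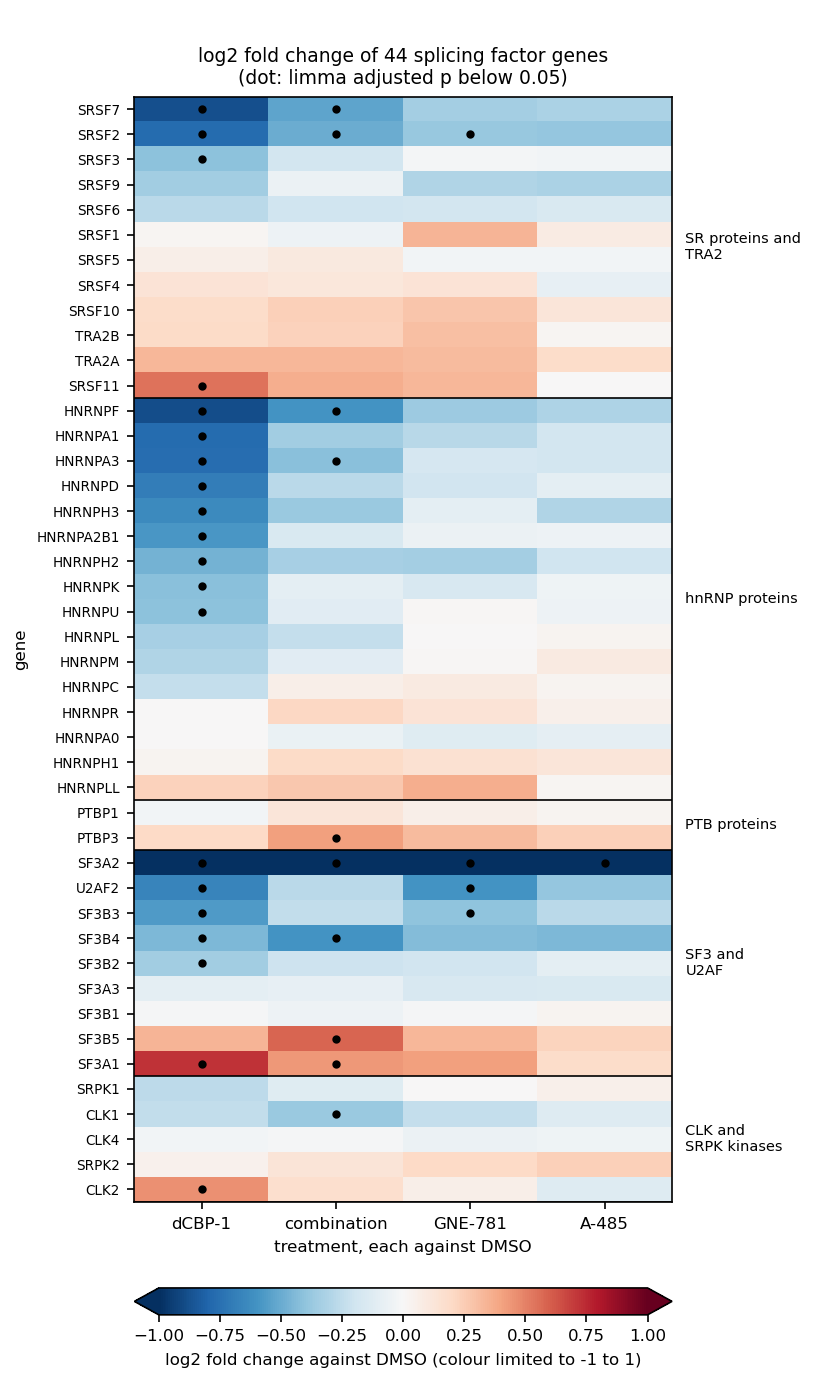
Heat map of the log2 fold change against DMSO of the 44 genes (rows, by role) with dCBP-1, the combination, GNE-781 and A-485 (columns). Colours are limited to −1 and 1, dots mark calls at an adjusted p below 0.05, and the hnRNP block holds 9 dots with dCBP-1 and 2 with the combination.

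Set directly against the combination, dCBP-1 gave no call among the 44 genes, where 5.61% of all genes were lower and 0.553% higher. By limma's unadjusted p below 0.05, 12 were lower and 1 higher, where 16.08% of all genes passed in either direction. The median difference was −0.15 on the log2 scale, against −0.03 for all genes, and 35 of the 44 values were negative. Libraries did not overlap for 13 genes lower with dCBP-1 and 2 higher, where 14.3% and 8.88% of all genes did so. The smallest adjusted p were those of HNRNPD (log2 −0.43, 95% interval −0.70 to −0.15, adjusted p = 0.053), SF3A2 (−0.60, interval −1.0 to −0.21, adjusted p = 0.057) and HNRNPA1 (−0.42, interval −0.70 to −0.14, adjusted p = 0.07), whose dCBP-1 libraries all lay below those of the combination. Every interval over the 44 genes lay within 1 log2 unit of 0. On reads recovered from the values, edgeR called SF3A1 higher and HNRNPA1, HNRNPA2B1 and HNRNPD lower, and DESeq2 called CLK2 and SF3A1 higher and those 3 with HNRNPK and HNRNPU lower. Over all genes edgeR called 2.403% higher and 6.222% lower, and DESeq2 3.62% and 7.327%.

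Against GNE-781, whose ligand type it carries, dCBP-1 lowered 9 of the 44 genes and raised 1 (20.5% and 2.27%), against 7.13% and 2.19% of all genes. This comparison uses no DMSO library in its fold change. The 9 were SRSF2, SRSF7, HNRNPA1, HNRNPA2B1, HNRNPA3, HNRNPD, HNRNPF, HNRNPH3 and HNRNPU, with log2 differences between −0.58 for HNRNPA3 (adjusted p = 0.0053) and −0.39 for SRSF2 (adjusted p = 0.049). CLK2 was the rise (0.40, adjusted p = 0.045). Of the 10, only HNRNPA3 was called under each alternative setting, and without dCBP-1 replicate 3 the number of genes lower was 1, and without GNE-781 replicate 2 or replicate 3 it was 2. CLK2, SRSF2 and HNRNPU lost their calls whichever of the 6 libraries was left out (adjusted p of CLK2 0.054 to 0.18). No SF3 or U2AF gene was called in the main fit. SF3A1 (log2 0.31) was called higher with TMM or median-ratio scaling and by edgeR and DESeq2. SF3A2 averaged 271 ± 23.4 normalized counts with dCBP-1 and 291 ± 37.3 with GNE-781 (SD, n = 3).

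**Figure D4:**
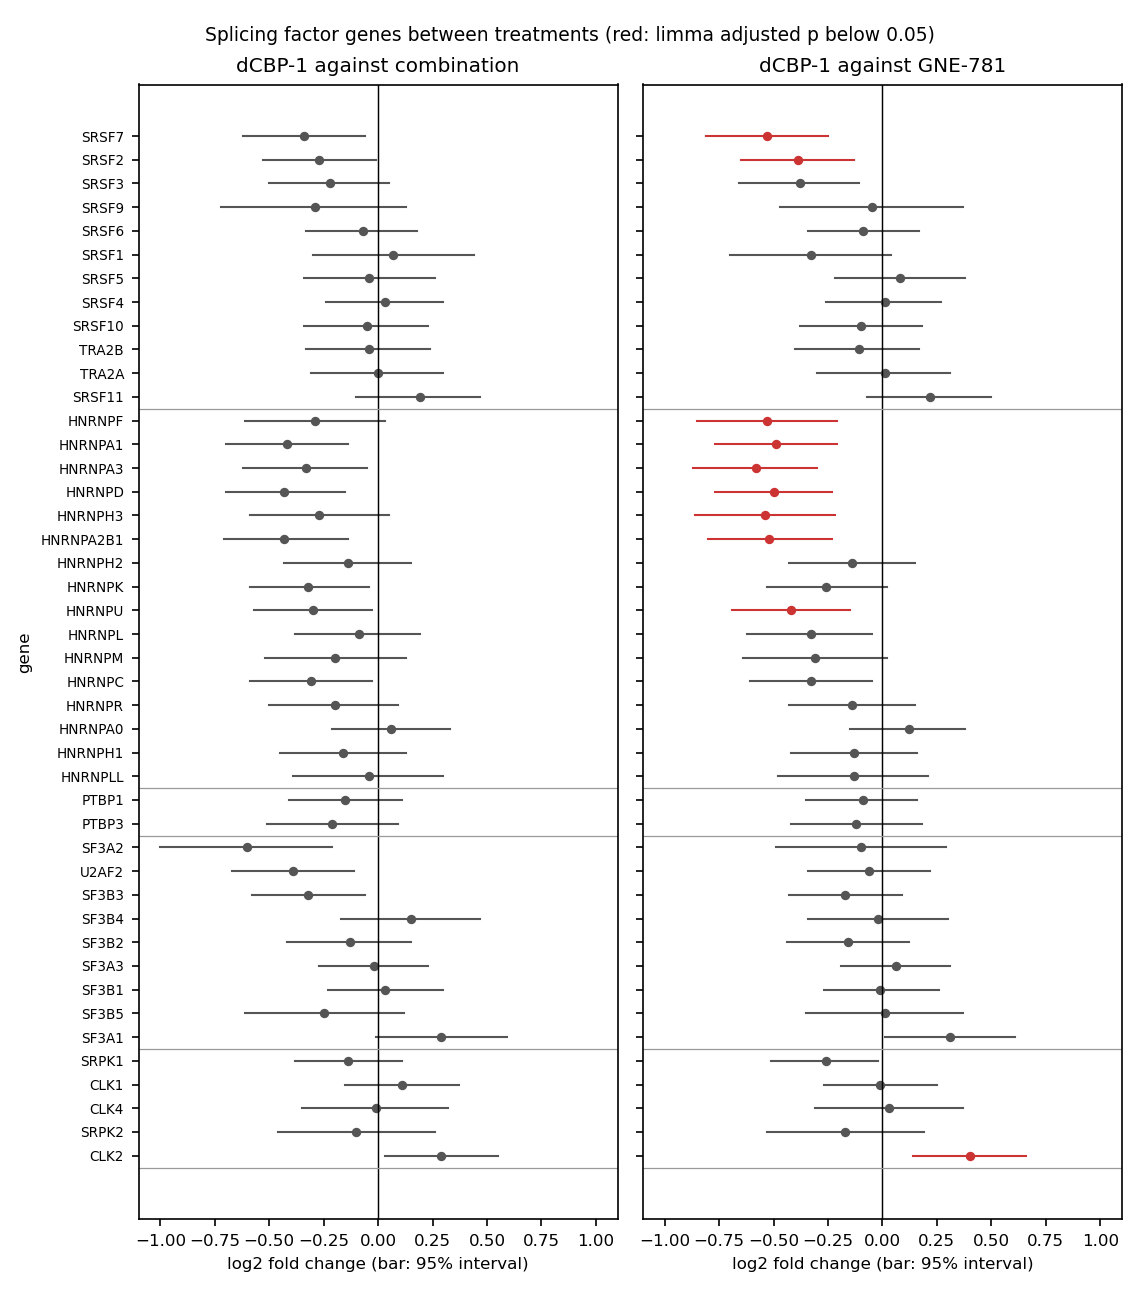
Log2 fold change of dCBP-1 against the combination and against GNE-781 for the splicing factor genes, with 95% intervals (bars), red where called. No gene is red against the combination, and 10 are red against GNE-781.

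The remaining splicing machinery was read with lists of 134 tested genes outside the 46. With dCBP-1, 29 of them rose and 29 fell (21.6% each), with a median log2 fold change of −0.08. Of all genes tested 19.3% rose and 18.5% fell, close to those shares, and the same shares of all genes stand beside each list below. In the Prp19 complex and among the proteins of the catalytic steps, 14 of 23 rose and 1 fell, with a median of 0.42. SLU7 and CWC15, catalytic-stage proteins, rose by 1.07 and 1.0 on the log2 scale, and CWC22, which loads the exon junction complex, rose by 0.88. Without DMSO replicates 1 and 2, 4 rose and 4 fell in that list, whose median was then 0.37, while 7.914% of all genes rose and 16.06% fell. Sm and LSm ring proteins had 1 rise and 4 falls of 14, among them LSM7 at −1.19. Other U1 and U2 proteins had 1 rise and 3 falls of 16 (6.25% and 18.75%, the falls near the share of all genes). SNRPB2 was at 0.85 and PHF5A, an SF3b subunit, at −0.60. In the U4/U6.U5 particle 3 of 17 rose (17.65%, near the share of all genes), SNRNP27 by 0.92 and PRPF6 by 0.74, and SNRNP40 fell by 1.0. Genes of the exon junction complex and of nonsense-mediated decay had 3 rises and 6 falls of 16, the decay factors UPF3A and SMG5 having −1.02 and −1.03. Of 48 other splicing regulators 7 rose and 14 fell, led by CELF2 at −2.21, HIPK2 at −1.56 and PRMT1 at −1.16.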

How the data were processed

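Expression was measured in 15 QuantSeq 3′ libraries of MM.1S cells, grouped by sample title. The values deposited by the authors are a signal per gene and library, called normalized read counts; the genome build is hg19 per the submitters' processing notes, and the aligner, counting tool, annotation and normalization are not given in the sources used here. All values (100%, tolerance 0.01) were whole multiples of 1 step per library, so reads could be recovered. No ERCC spike-in rows were present, so no value measures RNA per cell. The molecule field says genomic DNA, taken as a label error.

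Values were taken as log2(value + 1), a scale that understates the change of low genes. Genes with at least 5 in at least 3 libraries were tested with limma-trend (limma 3.58.1, R 4.3.3), two-sided, in 1 model of 5 group means, with Benjamini-Hochberg adjustment over the 16104 genes. Errors are SD of levels and SE of log2 fold changes. Alternatives were TMM and median-ratio scaling, pseudocounts of 0.25 and 5, filters, a replicate block, fewer groups, libraries left out, edgeR 4.0.16 and DESeq2 1.42.0. The test was checked on simulated data. Gene names, overlaps and transcript types are from GENCODE 29, and promoters are from RefSeq.

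The genes and lists were chosen with earlier results of these data known. Values in every library were given for the largest called rise and fall with dCBP-1 in each role group and for the 3 smallest p in dCBP-1 against the combination; 3 called genes of smallest p stand for each other list, except that 1 gene is not reported here. SF3B5 and U2AF1 values were added after their values were seen.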

Additional observations from a re-analysis of the deposited data

How the results depend on the processing

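Of the 20 genes called with dCBP-1 against DMSO, 12 were called under each of the 17 alternatives (CLK2, HNRNPA1, HNRNPA2B1, HNRNPA3, HNRNPD, HNRNPF, HNRNPH3, SF3A2, SF3B3, SRSF2, SRSF7 and U2AF2), as were 2 of 4 with GNE-781 (SF3A2 and U2AF2), none of 10 with the combination and none of 1 with A-485. The cause of the other changes was not tested.

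With DMSO replicates 1 and 2 left out, the number higher with dCBP-1 was 1, the numbers with the combination were 0 higher and 3 lower, 0 were lower with A-485, and SF3B5 with the combination turned to −0.07. With TMM scaling the combination lowered 11 genes, GNE-781 raised 4 and lowered 7, dCBP-1 was 1 higher and 3 lower than the combination, and 2 were higher than with GNE-781. Over all genes TMM gave 12.33% lower with the combination, and 11.56% higher and 10.79% lower with GNE-781. For dCBP-1 it gave 2.084% higher and 6.34% lower than the combination, and 4.454% higher than GNE-781. With median-ratio scaling the combination lowered 12, GNE-781 raised 2 and lowered 10, dCBP-1 was lower than the combination for 3, and higher than GNE-781 for 2. Of all genes 13.11% were then lower with the combination, and 10.37% higher and 11.64% lower with GNE-781. With dCBP-1, 6.451% of all genes were lower than with the combination and 4.348% higher than with GNE-781. By edgeR the combination lowered 11, GNE-781 raised 4, dCBP-1 against the combination gave 1 higher and 3 lower, and against GNE-781 2 higher. Over all genes edgeR called 12.69% lower with the combination and 10.56% higher with GNE-781. For dCBP-1 it called 2.403% higher and 6.222% lower than the combination, and 4.887% higher than GNE-781. By DESeq2 the combination lowered 14, GNE-781 raised 4 and lowered 11, A-485 lowered 2, dCBP-1 against the combination gave 2 higher and 5 lower, and against GNE-781 2 higher and 14 lower. Over all genes DESeq2 called 14.29% lower with the combination, 10.67% higher and 12.75% lower with GNE-781, and 3.434% lower with A-485. For dCBP-1 it called 3.62% higher and 7.327% lower than the combination, and 6.321% higher and 9.749% lower than GNE-781. A pseudocount of 5 and a filter at 20 each gave 1 higher with GNE-781, where 7.743% and 10.15% of all genes were higher. That filter and fitting only the groups compared each gave 2 lower with dCBP-1 than with the combination, where 7.527% and 5.528% of all genes were lower. Without a filter the combination raised 0, where 4.389% of all genes rose. In that setting dCBP-1 against GNE-781 gave 0 higher and 3 lower, against 0.8441% and 3.238% of all genes. Fitting only the groups compared, the combination raised 0, where 7.222% of all genes rose.

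Leaving out single libraries gave these ranges. With dCBP-1 against DMSO 3 to 5 were higher and 12 to 19 lower, and with the combination 0 to 7 higher and 3 to 9 lower. With GNE-781 0 to 6 were higher and 2 to 3 lower, and with A-485 0 to 2 higher and 1 to 2 lower. Of all genes 15.89% to 18.55% were lower with dCBP-1 in these fits, and 6.814% to 9.873% with the combination. The shares lower were 5.337% to 8.275% with GNE-781 and 0.3573% to 2.863% with A-485. The highest number higher in each of these comparisons came without DMSO replicate 3. In that setting 23.32% of all genes were higher with dCBP-1, 17.88% with the combination, 14.88% with GNE-781 and 4.245% with A-485. In the main fit these shares of all genes were 19.28%, 11.41%, 7.824% and 0.3477%. The combination's 3 lower came without its replicate 1, where 6.814% of all genes were lower. For dCBP-1 against the combination 0 were higher and 0 to 4 lower, the 4 without combination replicate 1, where 5.927% of all genes were lower. For dCBP-1 against GNE-781 0 were higher and 1 to 6 lower, the 1 without dCBP-1 replicate 3 and 2 without GNE-781 replicate 2 or 3. Of all genes 5.89%, 5.439% and 5.197% were lower in these fits.

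On average the replicate numbers did not pair the libraries: deviations of same-numbered libraries correlated between −0.157 and 0.0995. No library had its highest mean correlation with the libraries of its own number. Single best correlations could still be with the same number, as for A-485 replicate 3 and combination replicate 3 (0.0995). With the number as a replicate block, 1 gene was higher with the combination, 2 were lower with GNE-781, and none was higher with dCBP-1 than with GNE-781. The shares of all genes so called were 10.07%, 7.806% and 1.583%. The medians of all genes, −0.03 to 0.09 in the 6 comparisons, stand beside these calls. The 3 libraries per group limit precision: the median 95% interval over the 44 genes was 0.28 log2 units to each side. Levels near 0, such as that of U2AF1, were not tested.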
